A study of Mus musculus with 18 samples.

Results

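The comparison set BMDMs that had received LPS at 100 ng/ml for 24 h against BMDMs that had received LPS at 10 ng/ml for 3 h, and asked which genes belonged to an early, a sustained or a late response. BMDMs are macrophages grown in culture from mouse bone marrow, here from female C57BL/6 mice, in medium that held L929-conditioned medium as the source of the growth factor M-CSF. The 6 libraries of these groups, 3 per group, were picked by their labels out of 18 libraries in the series. The 3 libraries of unstimulated BMDMs served as the baseline for both. A further 6 libraries came from BMDMs given both 25 µM carboplatin, a platinum drug, and LPS at 100 ng/ml for 24 h. Of these 6, 3 came from cells that then received a second dose of LPS at 10 ng/ml for 3 h. The remaining 3 libraries, from cells that received both LPS doses without carboplatin, entered only the shared parts of the fit. The samples were labelled as replicates 1 to 3, and nothing in the labels said whether a number marked a mouse, a culture or a day, so that the p-values measure the spread between these samples. Dose and time changed together between both groups and cannot be told apart. In bulk RNA, a larger share of cells that express a gene and more RNA per cell cannot be told apart either.

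LPS, a component of the outer membrane of Gram-negative bacteria, is sensed on macrophages by TLR4 with the help of CD14 and MD-2. The receptor signals through MyD88 and TRIF to NF-κB, MAP kinases and interferon regulatory factors, and the first genes to be transcribed include cytokines, chemokines and the inhibitors that shut the same signals off. Later genes, many of which need newly made proteins or secreted factors such as interferon-β, include antimicrobial proteins, scavenger receptors and metabolic enzymes.

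The 250 bases before a RefSeq start site are shown for 4 genes on which the results below turn, with letters in capitals where they match a motif. Tnfaip3 and Cxcl10 stand for early genes, Sod2 for sustained genes and Saa3 for late genes. The motifs searched on both strands were the 10-letter consensus of NF-κB, the 10-letter consensus ISRE of interferon-activated factors, AP-1 (TGANTCA), CRE (TGACGTCA) and the E-box (CACGTG). CRE had no match in these 4 windows. The letters TATAAA were searched on the forward strand only, within 50 bases of the start, and were absent from that stretch of these 4 windows. Coordinates are those of GRCm38.p6, the build of the RefSeq table.
Tnfaip3, minus strand, chr10:19015411-19015660: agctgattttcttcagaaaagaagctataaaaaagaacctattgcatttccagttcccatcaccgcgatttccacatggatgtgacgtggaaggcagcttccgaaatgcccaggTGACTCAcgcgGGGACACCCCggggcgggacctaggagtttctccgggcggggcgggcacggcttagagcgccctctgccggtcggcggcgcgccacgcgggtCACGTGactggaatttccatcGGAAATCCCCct
Cxcl10, minus strand, chr5:92348890-92349139: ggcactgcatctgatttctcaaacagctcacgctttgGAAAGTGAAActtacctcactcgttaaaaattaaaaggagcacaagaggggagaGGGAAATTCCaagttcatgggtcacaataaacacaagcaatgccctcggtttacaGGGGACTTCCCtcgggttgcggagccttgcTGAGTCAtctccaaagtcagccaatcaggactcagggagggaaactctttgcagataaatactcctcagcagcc
Sod2, plus strand, chr17:13007589-13007838: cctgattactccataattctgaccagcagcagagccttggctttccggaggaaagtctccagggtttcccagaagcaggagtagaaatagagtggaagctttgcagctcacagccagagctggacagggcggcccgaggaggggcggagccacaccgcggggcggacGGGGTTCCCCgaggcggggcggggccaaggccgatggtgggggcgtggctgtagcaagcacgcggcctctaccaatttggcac
Saa3, minus strand, chr7:46715677-46715926: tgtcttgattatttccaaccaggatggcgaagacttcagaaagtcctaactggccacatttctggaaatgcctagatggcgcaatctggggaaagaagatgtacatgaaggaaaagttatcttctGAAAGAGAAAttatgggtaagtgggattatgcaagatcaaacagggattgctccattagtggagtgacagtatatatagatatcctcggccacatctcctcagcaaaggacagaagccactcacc
The window of Tnfaip3 held an AP-1 match, an E-box and NF-κB matches that began 125 and 12 bases before the start. In Cxcl10, an ISRE match lay 213 bases before the start, NF-κB matches began at 159, 104 and 103 bases, the last 2 of which overlap, and an AP-1 match began at 74 bases. Sod2 had 1 NF-κB match, 83 bases before the start, and Saa3 had 1 ISRE match, 125 bases before it. Of all 32851 windows of 300 bases in the table, 8.46% held the NF-κB consensus, 7.81% AP-1, 3.44% ISRE, 1.79% CRE, 7.15% the E-box and 2.32% TATAAA near the start. Windows were found for 436 of 564 early genes (77.3%) and 152 of 192 late genes (79.2%), both under 80%, so the motif shares of the classes were not compared. A match in letters says nothing about binding.

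The compared libraries held between 8172462 and 14708099 read pairs counted on genes. Within the groups, pairs of libraries correlated across genes at r between 0.963 and 0.982, against 0.842 to 0.868 between groups. All 12 macrophage markers tested were expressed in the 9 libraries used here. Their summed level was 164251 to 200535 normalized counts in the LPS-stimulated (10 ng/ml) group and 295700 to 297100 in the LPS-primed group. Lyz2 made up the largest part, and Cd68 went the other way, at 33579, 21332 and 21990 against 16180, 17117 and 12326. At an edgeR adjusted p under 0.05, 7 of the 12 were higher and 3 lower at 24 h, against 28.6% and 28.8% of all tested genes. Among markers of other cells, the defining genes Ly6g, Cxcr2, Mpo, Cd3e and Gata1 had 0 counts in all 9. The summed neutrophil markers nevertheless stood at 761 to 1137 after 3 h and at 2223 to 3492 after 24 h. Csf3r made up a large part, at 629, 968 and 967 against 1414, 2128 and 1416. Mmp8 read 19, 59 and 48 against 1639, 183 and 603. Of the 14 neutrophil markers, 10 had at most 3 counts in every library at 3 h, and 11 at 24 h. The platelet chemokine Pf4 stood at 469, 632 and 622 against 17230, 9429 and 6764. The B cell list fell from a sum of 71.6 to 271 down to 4.56 to 12.7, carried by the immunoglobulin gene Ighm. Ighm read 69, 211 and 271 against 2, 0 and 1. In unstimulated cells it was already higher, at 255, 943 and 1542, with a list sum of 269 to 1561. The part of other cells in these genes was not tested.

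Of 11305 genes tested, 476 (4.21%) were higher in LPS-primed BMDMs (100 ng/ml, 24 h) than in LPS-stimulated BMDMs (10 ng/ml, 3 h), and 657 (5.81%) were lower. These calls required an adjusted p under 0.05 by edgeR's quasi-likelihood test and an absolute log2 fold change over 2, and together they made up 10% of the tested genes. Of the 1133 called genes, 1123 moved the same way in 3 of 3 same-numbered pairs, a description only, as the calls came from these same libraries. In 1109 the ranges of both groups did not overlap, which was also true of 51.4% of all tested genes. The median log2 fold change over all tested genes was 0.03. Against unstimulated BMDMs, 742 genes (6.56%) were higher and 639 (5.65%) lower after 3 h, and 406 (3.59%) were higher and 481 (4.25%) lower after 24 h. With library size in place of TMM scaling, the calls at 3 h were 597 higher and 986 lower, as the median log2 fold change of all genes moved from -0.09 to -0.43.

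The 916 genes called higher than unstimulated at either time were sorted by their direct difference between both LPS groups. A gene was early when called higher at 3 h and lower at 24 h than at 3 h by more than 1 on the log2 scale with an adjusted p under 0.05. It was late when called higher at 24 h and by more than 1 above its 3 h level, and sustained when called at both times with the 95% interval of the difference inside -1 to 1. By this rule 564 genes (4.99% of those tested) were early, 43 (0.38%) sustained and 192 (1.7%) late, and 117 fitted none. The same rules in the opposite direction gave 432 early lowered, 9 sustained lowered and 293 late lowered genes, while 268 of 1002 lowered genes fitted none. The limits cut through a continuum, since Cpd, just inside the early class, differed by -1.007 on the log2 scale and Snapc1, just outside, by -0.996. Likewise Gab1, at 1.0029, was late and Rnd3, at 0.99997, was not. The differences that define a class are descriptions and carry no further test.

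**Figure D1:**
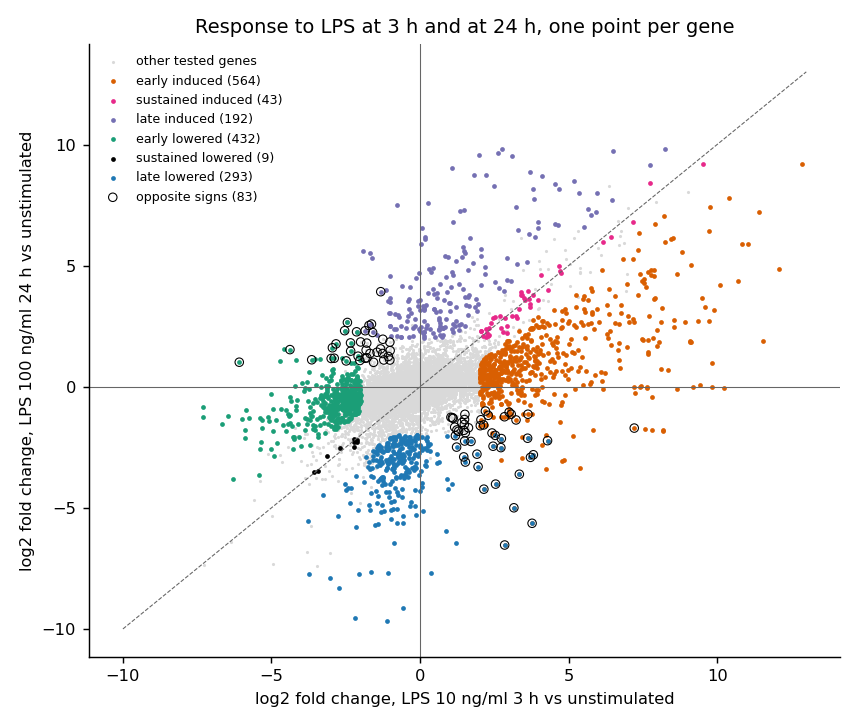
Each point is 1 of 11305 tested genes, with its fitted log2 fold change against unstimulated BMDMs after LPS at 10 ng/ml for 3 h on the x axis and after 100 ng/ml for 24 h on the y axis. Colours mark the classes with their number of genes, open circles mark the 83 genes with opposite signs, and the dashed line is equality. Early induced genes lie to the right below the line and late induced genes above it.

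Early genes were induced by a median of 3.41 on the log2 scale at 3 h, and their median at 24 h was 0.75. With genes near 0 counts set to the floor of 3 counts per library, these medians were 3.26 and 0.70. At 24 h, 101 of the 564 were still called higher than unstimulated, 245 had an adjusted p of 0.05 or more, and 37 were below unstimulated with an adjusted p under 0.05. The gene models were close to those of all tested genes in size, with a median span of 25369 bp against 25531 bp, while 10.7% of early genes and 6.64% of all had at most 2 exons in the canonical transcript.

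Factors and inhibitors of NF-κB were mostly early. On this list of 20 genes, 15 were early and 1 was late, against 4.99% and 1.7% of all tested genes. In the direct comparison 12 were lower, against 5.81%, and 8 were not called, with a median of -2.30. Tnfaip3, which encodes the ubiquitin-editing enzyme A20 on chromosome 10 (18874201 to 18891405, minus strand, GRCm39), read 108, 132 and 138 normalized counts in unstimulated cells. It stood at 15858, 18541 and 14619 after 3 h and at 676, 852 and 917 after 24 h. The groups were far apart, and the level at 24 h was still above each unstimulated library. The direct log2 fold change was -4.33 ± 0.12 (SE, n = 3 per group, edgeR adjusted p = 4.70e-14). Nfkb1, the gene of the p105 precursor of p50, went from 9817, 12333 and 11828 to 1500, 1545 and 1445, and its level at 24 h lay close to the 1196, 1343 and 1412 of unstimulated cells. Tnfaip2 followed the same course, from 33684, 31426 and 34090 to 2198, 2508 and 2489. It encodes neither a factor nor an established inhibitor of NF-κB, but counts among the 15 early members of the list. Among MAP kinase phosphatases and SOCS genes, 8 of 12 were early and 6 lower in the direct comparison, against 4.99% and 5.81% of all. Dusp2, a nuclear phosphatase of MAP kinases, read 9, 7 and 3 in unstimulated cells, 1650, 1339 and 1196 after 3 h and 2, 10 and 2 after 24 h, a change of -8.24 ± 0.35 (edgeR adjusted p = 5.54e-12). Cish, a STAT5 target that restrains cytokine signals, fell from 1410, 744 and 669 to 17, 16 and 22. Dusp6 was the 1 list member that went the other way, with 18, 15 and 37 after 3 h and 655, 314 and 317 after 24 h (4.15 ± 0.35, edgeR adjusted p = 2.30e-08). Dusp6 encodes the cytoplasmic phosphatase of ERK, and all 3 libraries at 3 h lay below the 146, 128 and 73 of unstimulated cells.

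Of 25 tested immediate-early transcription factors, 9 were early, against 4.99% of all tested genes. In the direct comparison 9 were lower and 1 was higher, against 5.81% and 4.21%, with a median of -1.33. Junb, an AP-1 subunit, read 18261, 16133 and 17665 after 3 h and 2762, 2925 and 2643 after 24 h. Myc stood at 1888, 1447 and 1265 against 75, 26 and 27 (-5.21 ± 0.25, edgeR adjusted p = 2.23e-11), which overlapped the 76, 57 and 26 of unstimulated cells. Jun was the exception, with 311, 412 and 692 after 3 h and 2293, 1761 and 1958 after 24 h. Jun at 3 h lay below all 3 unstimulated libraries, at 1036, 726 and 703, whereas Junb was at its highest there. Of the mRNA decay factors, Zfp36, which encodes the AU-rich element binding protein tristetraprolin, was lower at 24 h by 3.47 ± 0.19 (edgeR adjusted p = 1.04e-10), and 8 of 10 were not called. Stat5a fell to 247, 237 and 235 from 4095, 4652 and 4804, and its 3 libraries at 24 h lay just below the unstimulated range of 289 to 314.

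Cytokines were the list with the lowest median, at -3.69, or -3.08 with low groups set to the floor. Of 23 tested members, 16 were lower at 24 h than at 3 h, against 5.81% of all tested genes, and 7 were not called. Early members numbered 16, against 4.99%. Il10, an anti-inflammatory cytokine (chromosome 1, 130947581 to 130952711, plus strand, GRCm39), had the largest fitted change of the list. Its normalized counts were 29, 37 and 26 in unstimulated cells, 4409, 5547 and 3620 after 3 h, and 15, 11 and 3 after 24 h. The 24 h libraries therefore lay below the unstimulated ones, and the direct log2 fold change was -8.92 ± 0.37 (edgeR adjusted p = 5.54e-12). Tnf, the archetypal proinflammatory cytokine, read 14714, 7858 and 5988 after 3 h against 285, 353 and 267 after 24 h, a change of -4.92 ± 0.26 (edgeR adjusted p = 8.33e-11). Its 24 h level remained above the 131, 75 and 62 of unstimulated cells in all 3 libraries. Il6 was at 0 in the unstimulated libraries, at 1444, 428 and 478 after 3 h and at 123, 7 and 81 after 24 h. The groups did not overlap, but within each of them 1 library differed severalfold from another, and the log2 change was -3.69 ± 0.50 (edgeR adjusted p = 1.22e-05). Il12b was low throughout, with 29, 14 and 13 after 3 h and no count after 24 h, which makes it at least 5.88-fold lower against the floor of 3 counts per library. DESeq2 gave Il12b an adjusted p of 0.273.

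Il1b, the precursor of interleukin-1β, kept a high level at 24 h. It read 63058, 48828 and 65006 after 3 h and 24418, 2439 and 19223 after 24 h, against at most 59 in unstimulated cells. Replicate 2 was the low one, and the difference of -2.61 ± 0.52 (edgeR adjusted p = 0.000393) was -1.94 with an adjusted p of 0.0797 when the replicate number was left out of the model. Cd14, the LPS co-receptor, had the same low replicate, with 27385, 7200 and 16923 after 24 h against 40070, 28437 and 42598. Its difference of -1.31 ± 0.19 (edgeR adjusted p = 1.53e-05) had an adjusted p of 0.0788 without the replicate number. Acod1, which makes itaconate, went from 46059, 33611 and 51810 to 20462, 16383 and 21570 and was also early by the rule while far above unstimulated cells at both times. On the list of arginine, itaconate and redox genes, 3 of 19 were higher in the direct comparison and 1 was lower. Of all tested genes 4.21% were higher and 5.81% lower. The other 15 of the list, Acod1 included, were not called.

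Chemokines split by family and by member. Of 11 CC chemokines tested, 4 were lower and 2 higher at 24 h, against 5.81% and 4.21% of all tested genes. At 3 h, 10 of 11 had been called higher than unstimulated, against 6.56%. Ccl4, a chemokine that attracts monocytes and T cells, read 8600, 9635 and 7486 after 3 h and 185, 163 and 224 after 24 h (-5.49 ± 0.25, edgeR adjusted p = 1.44e-11). Ccl3 fell in parallel to 910, 414 and 928 from 15916, 16664 and 12230. Both overlapped the unstimulated libraries again, in which Ccl4 ranged from 74 to 213 and Ccl3 from 361 to 758. Ccl22 was at 194, 50 and 132 after 3 h and at 0 in all 3 libraries after 24 h, at least 40.0-fold lower against the floor. Ccl5, which recruits T cells and monocytes, was instead higher at 24 h, with 8434, 9847 and 6724 against 4356, 3405 and 4046. Its difference of 1.07 ± 0.26 (edgeR adjusted p = 0.00212) placed it just inside the late class. Ccl6 was late from a flat start, at 828, 904 and 1201 after 3 h, near the 785, 883 and 914 of unstimulated cells, and at 6277, 4362 and 3695 after 24 h. Among 8 CXC chemokines, Cxcl10, an interferon-induced ligand of CXCR3, went from 3268, 2597 and 1342 to 36, 72 and 60 (-5.41 ± 0.44, edgeR adjusted p = 1.51e-08). At 24 h it overlapped the 91, 34 and 36 of unstimulated cells. Cxcl1 and Cxcl2, the neutrophil attractants, fell by less, by 3.29 ± 0.26 and 2.29 ± 0.18, and remained called above unstimulated cells at 24 h.

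Of 12 tested costimulatory and checkpoint genes, which encode surface molecules for T cell contact, 6 were lower and 6 not called, with a median of -2.56. Early members numbered 7, and of all tested genes 5.81% were lower and 4.99% early. Cd40 read 5287, 4533 and 5520 after 3 h and 74, 85 and 86 after 24 h, a change of -5.97 ± 0.23 (edgeR adjusted p = 1.62e-12). Icam1, an adhesion ligand of leukocyte integrins, went from 26712, 18034 and 19117 to 1670, 1831 and 1819. Ptgs2, the inducible cyclooxygenase of prostaglandin synthesis, read 9280, 17083 and 15500 after 3 h and 586, 179 and 831 after 24 h (-5.12 ± 0.48, edgeR adjusted p = 8.75e-08). Even so, Ptgs2 at 24 h exceeded the unstimulated range of 6 to 10 in all 3 libraries. Odc1, the first enzyme of polyamine synthesis, fell to 774, 676 and 336 from 18240, 11901 and 11084. The inflammasome sensor Nlrp3 fell by 2.12 ± 0.12 (edgeR adjusted p = 1.72e-10).

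Several early genes were close to absent both before and 24 h after LPS. The extracellular matrix gene Tnc read 123, 115 and 106 after 3 h and 0 in all 3 libraries after 24 h, at least 36.6-fold lower against the floor. Shisa3 was at 305, 295 and 524 after 3 h, with a single read pair over all 3 libraries at 24 h, and the ratio of summed counts was 1064 with a counting interval of 191 to 42040. DESeq2 gave Shisa3 an adjusted p of 0.0806. Plat, the tissue plasminogen activator gene, read 944, 263 and 918 against 3, 0 and 1, a ratio of 460 with an interval of 180 to 1691. Hbegf, a ligand of the EGF receptor, had a ratio of 215 (73.4 to 1046) and Pxdc1 one of 138 (46.9 to 671). These intervals cover counting error only. Olr1, a receptor for oxidised LDL, read 2420, 4805 and 2334 after 3 h, and its 26, 17 and 17 after 24 h were still above the unstimulated libraries, which held 2 read pairs in all.

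**Figure D2:**
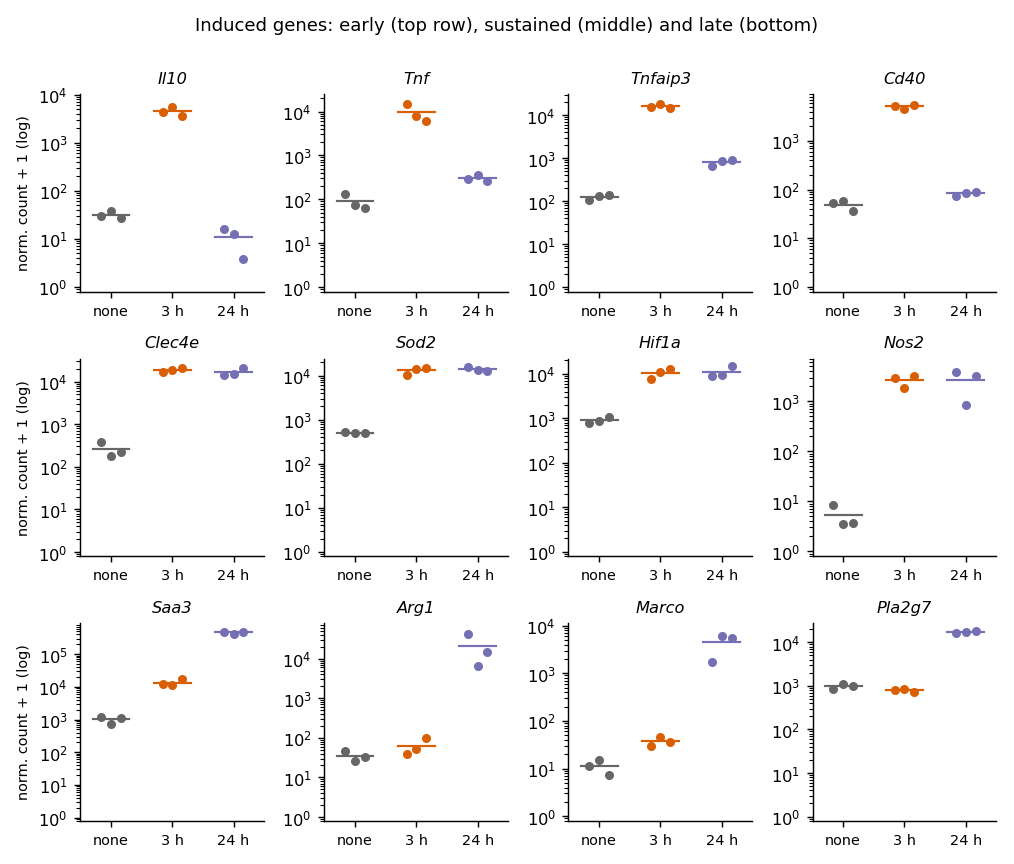
Normalized counts plus 1 on a log axis in each library of unstimulated BMDMs (none), LPS at 10 ng/ml (3 h) and LPS at 100 ng/ml (24 h), with a bar at the mean of the 3 libraries. Early genes peak at 3 h in all 3 libraries, sustained genes have overlapping 3 h and 24 h libraries, and late genes are highest in all 3 libraries at 24 h.

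Of 232 genes called higher than unstimulated at both times, 147 were not called in the direct comparison. Only 43 met the sustained rule, which asks for a whole interval inside the limits. The median log2 fold changes of these 43 were 3.33 at 3 h and 3.20 at 24 h. Clec4e, which encodes the receptor Mincle, read 377, 183 and 224 in unstimulated cells, 16838, 19136 and 21089 after 3 h, and 14398, 14726 and 20533 after 24 h. Both LPS groups overlapped, and the 95% interval of their log2 difference lay inside the limits of -1 and 1 by the rule of the class. Sod2, the mitochondrial superoxide dismutase (chromosome 17, 13224095 to 13259591, plus strand, GRCm39), was at 10157, 13832 and 15248 against 15759, 13199 and 12584, from a baseline of 531, 501 and 493. Hif1a, the oxygen-regulated factor that drives glycolytic genes, read 7809, 11058 and 12695 against 8871, 9302 and 14648. The scavenger receptor gene Msr1 and the ubiquitin ligase gene Rnf149 completed the 5 most abundant sustained genes, with differences of 0.39 ± 0.19 and 0.35 ± 0.11. The 3 h and 24 h libraries of Rnf149 did not overlap, at 4946, 6594 and 6281 against 7328, 8275 and 7049, so that a small rise remained within the sustained limits. Its edgeR adjusted p of 0.0132 was 0.0583 without replicate 2 of the 24 h group and 0.0878 without replicate 1 of the 3 h group. Nos2, the inducible nitric oxide synthase, was also sustained. It rose from 8, 2 and 3 to 2906, 1831 and 3282 at 3 h and stood at 3891, 835 and 3172 at 24 h, a difference of -0.35 ± 0.27 (edgeR adjusted p = 0.291). Without replicate 1 of the 3 h group, Nos2 differed by -0.71 with an adjusted p of 0.0126.

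Late genes were induced by a median of 3.61 on the log2 scale at 24 h, and their median at 3 h was 0.71. With low groups at the floor these medians were 3.25 and 0.67. Of the 192 genes, 38 had already been called higher at 3 h, 97 had an adjusted p of 0.05 or more at 3 h, and 17 were below unstimulated at 3 h with an adjusted p under 0.05. Their median span was 24244 bp, with a median of 7 exons against 9 for all tested genes.

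Acute-phase and antimicrobial proteins had a median of 2.09, or 1.85 with low groups at the floor. Of 17 tested members 9 were higher, 1 was lower and 13 were late, against 4.21%, 5.81% and 1.7% of all tested genes. Saa3, the serum amyloid A gene of macrophages (chromosome 7, 46361422 to 46365576, minus strand, GRCm39), read 1237, 730 and 1110 in unstimulated cells, 11996, 10996 and 17547 after 3 h and 490853, 426880 and 486808 after 24 h. It therefore rose in both steps without any overlap, and the direct change was 5.13 ± 0.17 (edgeR adjusted p = 3.10e-13). Slpi, a secreted inhibitor of leukocyte proteases, read 26, 8 and 17 against 1756, 436 and 839 (5.83 ± 0.19, edgeR adjusted p = 1.35e-13). The complement protease gene C1s1 stood at 10, 6 and 11 against 437, 219 and 735. Ptx3, a pentraxin, was the member that was lower, at 91, 60 and 97 after 3 h and 1, 1 and 0 after 24 h, a ratio of 114 (31.3 to 949).

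Pattern recognition and scavenger receptors were divided. Of 26 sensors, 5 were higher, 3 lower and 6 late, against 4.21%, 5.81% and 1.7% of all tested genes. Marco, a scavenger receptor that binds bacteria (chromosome 1, 120402267 to 120432753, minus strand, GRCm39), read 29, 46 and 35 after 3 h and 1716, 6183 and 5462 after 24 h, a change of 6.92 ± 0.33 (edgeR adjusted p = 1.98e-11). Fpr1, a receptor for formylated bacterial peptides, was at 94, 52 and 109 against 5678, 3438 and 4872, and its paralog Fpr2 at 169, 122 and 179 against 3782, 3134 and 4401. All 3 late libraries lay more than an order of magnitude above the early ones in these receptors. Aoah, the enzyme that deacylates and inactivates LPS, read 210, 207 and 224 against 3664, 4984 and 4408 (4.34 ± 0.16, edgeR adjusted p = 9.46e-13). Among the receptors that were lower at 24 h, Nod2 was early while Clec7a, the β-glucan receptor Dectin-1, was late lowered, at 224, 409 and 419 after 3 h and 43, 39 and 36 after 24 h. The lectin receptor Clec4d was late, at 9762, 14266 and 10411 against 29386, 23158 and 27119, although it is encoded beside the sustained Clec4e.

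The late class included the arginine and redox enzyme genes Arg1, Ass1 and Hmox1. Arg1, the arginase that competes with nitric oxide synthase for arginine (chromosome 10, 24791118 to 24803817, minus strand, GRCm39), read 38, 51 and 96 after 3 h and 41961, 6440 and 15114 after 24 h. The early libraries came close to the 46, 25 and 31 of unstimulated cells, and the late libraries varied severalfold among themselves, with a change of 7.98 ± 0.43 (edgeR adjusted p = 9.88e-11). Pla2g7, the platelet-activating factor acetylhydrolase (chromosome 17, 43878846 to 43923289, plus strand, GRCm39), had the smallest adjusted p of the named late genes. It was at 790, 846 and 730 after 3 h, just below the unstimulated range of 852 to 1106, and at 16550, 17170 and 18053 after 24 h (4.45 ± 0.11, edgeR adjusted p = 6.52e-15). Hmox1, heme oxygenase 1, stood at 2540, 4818 and 3853 against 34106, 31964 and 26864. Ass1, which regenerates arginine from citrulline, was higher by 3.21 ± 0.30 (edgeR adjusted p = 6.79e-08). Cd38, an NAD-consuming ectoenzyme, read 20, 14 and 24 against 1065, 1974 and 1911, and Mgarp, a mitochondrial protein gene, 2, 1 and 9 against 221, 238 and 258. Csta2, of the stefin A cluster, and Ly6i, of the Ly6 cluster, rose to at least 141 and 150 normalized counts in each late library from 3 or fewer in each early one. Both belong to families of near-identical copies between which reads may have been split.

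Glycolytic genes moved together at a smaller size. None of the 18 was called at the limit of 2 by edgeR, DESeq2 or limma-voom. At an adjusted p under 0.05 alone, and likewise at an unadjusted p under 0.05, 13 of 18 were higher and 1 was lower, against 28.6% and 28.8% of all tested genes by the adjusted p. Their median direct change was 1.24. Of the 18, 5 were late, 2 sustained and 1 early, against 1.7%, 0.38% and 4.99% of all tested genes. Ldha, lactate dehydrogenase A, read 10273, 8434 and 12090 after 3 h and 32444, 26079 and 26891 after 24 h, with 6604, 3867 and 4045 in unstimulated cells. Itgam, the integrin chain CD11b, was flat at 3 h, with 3840, 5606 and 5405 against 3696, 6222 and 4758, and reached 23999, 30057 and 27006 at 24 h.

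The early lowered class of 432 genes was lower at 3 h and closer to unstimulated at 24 h, with medians of -2.62 and -0.61. At 24 h, 179 of them were still below unstimulated with an adjusted p under 0.05, 16 of which were called lower, and 235 had an adjusted p of 0.05 or more. Irf8, a lineage factor of macrophages, read 903, 1118 and 1235 in unstimulated cells, 235, 214 and 190 after 3 h and 964, 939 and 939 after 24 h (2.15 ± 0.14, edgeR adjusted p = 7.49e-10). Mertk, the receptor for apoptotic cells, dropped from 351, 934 and 544 to 69, 72 and 60 and was back at 260, 627 and 428. In both genes the 3 h libraries lay below the other 2 groups without overlap. Txnip, a thioredoxin inhibitor that responds to glucose, and Apobec1, an RNA cytidine deaminase, differed by 1.41 ± 0.16 and 1.96 ± 0.13. Tlr13, a sensor of bacterial ribosomal RNA, stood at 937, 583 and 386 against 2201, 3670 and 2457. The GTPase-activating protein gene Arhgap45 and the lysosomal pump gene Atp13a2 were also among the 5 most abundant members, and Atp13a2 overlapped the unstimulated libraries again at 24 h. Scd2, a fatty acid desaturase gene, rose past the unstimulated level, from 135, 298 and 190 to 13, 34 and 45 and then to 447, 692 and 1062. Irf7, the master regulator of interferon-α genes, was late, with 3461, 1178 and 995 after 3 h, overlapping the unstimulated libraries, and 8692, 10348 and 5541 after 24 h.

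Late lowered genes, 293 in number, had medians of -0.75 at 3 h and -3.05 at 24 h, or -2.88 at 24 h with low groups at the floor. Mitotic genes were the list with the most late lowered members. All 30 mitotic genes were lower at 24 h than at 3 h at an adjusted p under 0.05, against 28.8% of all tested genes. Of the 30, 22 passed the limit of 2 as well, against 5.81%, and 25 were late lowered, against 2.59%. Ccnb2, a mitotic cyclin, read 824, 888 and 478 after 3 h and 42, 66 and 53 after 24 h (-3.73 ± 0.25, edgeR adjusted p = 1.19e-09). Ube2c, the ubiquitin carrier of the anaphase-promoting complex, was at 959, 980 and 513 after 3 h, level with the 872, 1010 and 480 of unstimulated cells, and at 23, 49 and 57 after 24 h. The activator of that complex, Cdc20, changed by -3.63 ± 0.25 (edgeR adjusted p = 1.85e-09). The 29 DNA replication genes behaved differently. Their median was already -1.23 at 3 h and was -1.18 at 24 h. Of all tested genes 10% were called in the direct comparison, and of these 29 genes 28 were not. The exception was E2f1, the S-phase transcription factor, at 124, 76 and 97 after 3 h and 422, 385 and 384 after 24 h.

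The 5 most abundant late lowered genes were Spp1, Selenop, Lipa, Trem2 and Lpl. Lpl, lipoprotein lipase, was at 5011, 5231 and 4455 after 3 h and 418, 573 and 515 after 24 h (-3.33 ± 0.28, edgeR adjusted p = 2.00e-08). Trem2, a lipid-sensing receptor, read 6623, 5320 and 4631 against 2390, 2220 and 1426, and Lipa, lysosomal acid lipase, 5554, 4656 and 3525 against 1247, 1913 and 2103. Selenop, the selenium carrier, and Spp1, osteopontin, differed by -2.20 ± 0.16 and -1.96 ± 0.19, with levels that varied severalfold between replicate numbers in every group. Axl, another receptor for apoptotic cells, went against Mertk, with 1771, 1562 and 1762 after 3 h, all above the unstimulated 1520, 1341 and 1516, and 174, 262 and 278 after 24 h (-2.85 ± 0.14, edgeR adjusted p = 4.16e-11). Gas6, the ligand shared by Axl and Mertk, was lower by a similar size, -2.34 ± 0.23 (edgeR adjusted p = 1.30e-07). Cx3cr1, the fractalkine receptor, read 106, 88 and 109 against 17, 17 and 53. Of 118 genes called lower than unstimulated at both times, 9 met the sustained lowered rule. The most abundant of the 9 were Cdc25b, a phosphatase that activates cyclin-dependent kinases, Mical1, Cyp27a1, Slc46a3 and Nr1d2. The direct differences of the 9 lay between -0.28 and 0.29.

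A set of 83 genes stood on opposite sides of the unstimulated level, with an absolute log2 fold change over 1 and an adjusted p under 0.05 at both times. Of these, 47 were higher at 3 h and lower at 24 h, and 36 the reverse. Irf4, a lymphoid and macrophage polarisation factor (chromosome 13, 30933209 to 30950959, plus strand, GRCm39), read 9, 16 and 18 in unstimulated cells, 144, 93 and 167 after 3 h and 1, 0 and 0 after 24 h. The ratio of the LPS groups was 372, with a counting interval of 66.5 to 14740. Egr2 stood at 60, 38 and 31, then at 1027, 450 and 414, then at 5, 7 and 6 (-6.62 ± 0.32, edgeR adjusted p = 2.34e-11). Cd83, a marker of activated antigen-presenting cells, took the same path, with 88, 96 and 82, then 2446, 1656 and 1320, then 29, 22 and 9. Fgd1, a Cdc42 exchange factor gene, and Cx3cl1, fractalkine, were at 0 in all libraries at 24 h, at least 26.4-fold and 28.0-fold below 3 h. Nox1, an NADPH oxidase, had a ratio of 141 (38.9 to 1173). In the reverse direction, Ccdc125 (chromosome 13, 100805858 to 100834868, plus strand, GRCm39) read 73, 90 and 112, then 4, 0 and 1, then 165, 188 and 199, and the ratio of 24 h to 3 h was 152 (59.1 to 560). The predicted gene Gm5150 fell from 69, 69 and 89 to 37, 24 and 33 and reached 1219, 1181 and 1050. Lmln, Spsb4 and Epm2a followed at low levels, with no more than 75 normalized counts in any library of the 3 groups.

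**Figure D3:**
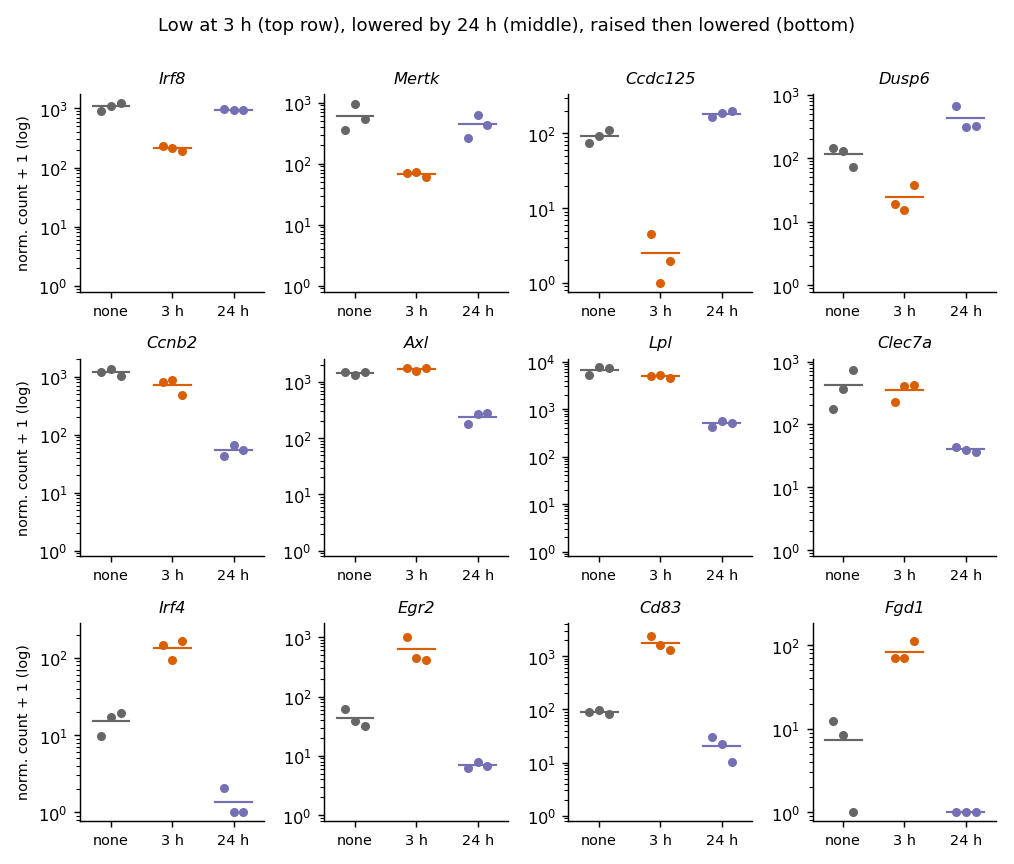
Normalized counts plus 1 on a log axis in each library of the same 3 groups, with a bar at the mean. The top row shows genes at their lowest at 3 h, the middle row genes that are lowest at 24 h, and the bottom row genes that rise at 3 h and lie below all unstimulated libraries at 24 h, except that 1 unstimulated library of Fgd1 is also at 0.

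Among 38 tested interferon-stimulated genes, 7 had been called higher than unstimulated at 3 h, against 6.56% of all tested genes. In the direct comparison 6 were lower, against 5.81%, and 32 not called. Those that were lower included the guanylate-binding protein genes Gbp5, at 5052, 6134 and 5974 after 3 h and 85, 158 and 109 after 24 h, and Gbp3, as well as Ifi205. None of 17 MHC class I genes was called in either direction by edgeR, DESeq2 or limma-voom, and by edgeR 5 were higher and 3 lower at an unadjusted p under 0.05, as were 6970 of all 11305 tested genes in either direction. Of 8 MHC class II genes, 3 were lower and 1, H2-DMb2, was higher. Ciita, the class II transactivator, read 47, 28 and 41 after 3 h and 0, 2 and 1 after 24 h, while H2-Eb1 and H2-Aa were lower by 2.13 ± 0.30 and 2.13 ± 0.38. Cholesterol synthesis genes had a median of -0.71. At an edgeR adjusted p under 0.05 alone, 13 of 21 were lower and 4 higher, against 28.8% and 28.6% of all tested genes. Of the 21, 2 were lower past the limit of 2 as well, Cyp51 and Idi1, against 5.81% of all. Cyp51 read 456, 1093 and 823 after 3 h against 99, 194 and 247 after 24 h and 305, 225 and 315 in unstimulated cells. In the direct comparison, no gene was called by edgeR, DESeq2 or limma-voom among 14 tested H3K9 methylation enzymes and readers. Of these, edgeR gave 3 higher and 5 lower at an unadjusted p under 0.05, against the same 6970 of 11305. Against unstimulated cells, 1 of the 14 was called higher at 3 h and 1 at 24 h, against 6.56% and 3.59% of all. Kdm4d and Setdb2, with at most 3 and 8 counts in any library of the 3 groups, were not tested. Matrix proteases and their inhibitors split, with 4 of 19 higher, Mmp9 and Serpinb2 among them, and 5 lower. Of all tested genes 4.21% were higher and 5.81% lower. Plaur, the urokinase receptor, was one of the 5 lower. Of 22 survival and death genes, 5 were lower, including Gadd45b and Cflar, and Bcl2 was higher at a level of 10 normalized counts or fewer.

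**Figure D4:**
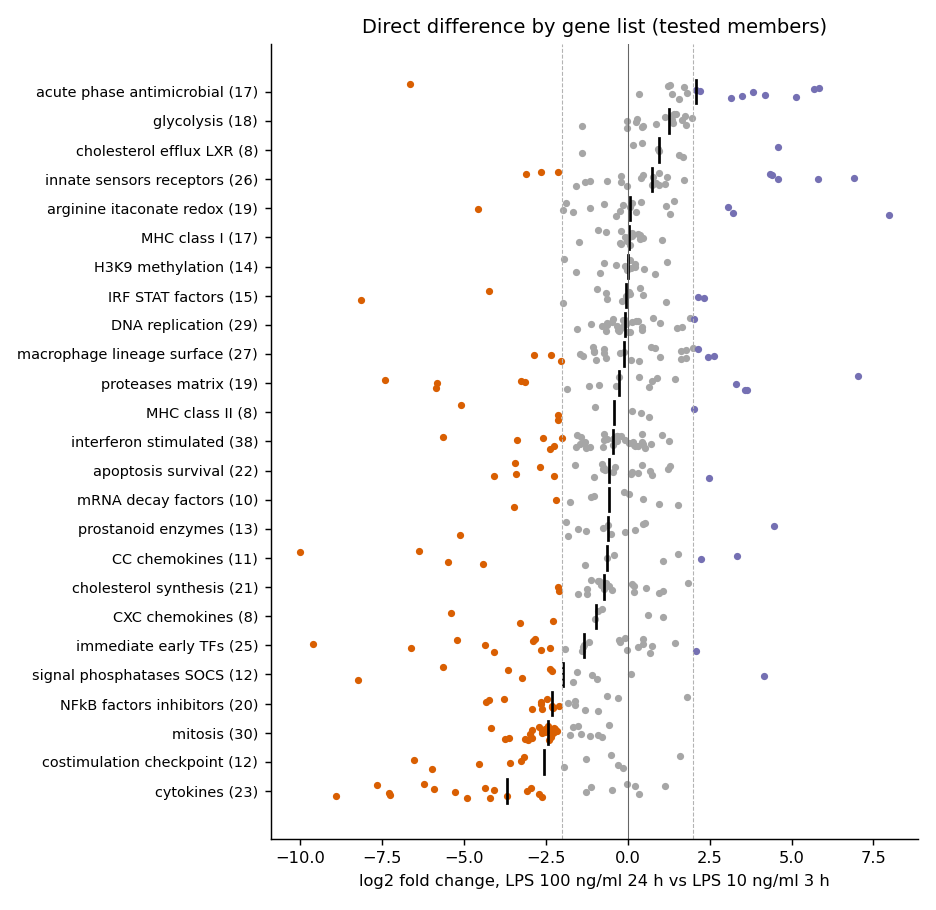
Fitted log2 fold changes of LPS at 100 ng/ml for 24 h against LPS at 10 ng/ml for 3 h, 1 point per tested gene, by gene list with the number of tested members. Purple points are called higher, orange points called lower and grey points not called, black bars are medians and dashed lines mark -2 and 2. Cytokines, costimulatory and mitotic genes lie to the left, and acute-phase and glycolytic genes to the right.

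The classes were then counted in a comparison of 6 other libraries, which had entered the fit behind the classes through its shared filter, scaling, spread and replicate term. In carboplatin-treated BMDMs, a second dose of LPS (10 ng/ml, 3 h) after 24 h at 100 ng/ml was compared with 24 h at 100 ng/ml alone, at an absolute log2 fold change over 1. By the study's methods the second dose came in fresh medium. Effects of the dose, the new medium and the 3 added hours cannot be told apart. Over all tested genes 165 (1.46%) were higher and 137 (1.21%) lower after the second dose. Of the 564 early genes, 57 (10.1%) were higher and 12 (2.13%) lower. They included Tnf, higher by 2.66 (edgeR adjusted p = 2.93e-06), Ccl3 by 2.11 (1.60e-05), Tnfaip3 by 1.10 (7.74e-06), Myc by 3.70 (2.30e-07) and Odc1 by 2.07 (9.41e-05). Most early genes were not called, among them Il6 at -0.33, Il1b at -0.96, Dusp2 at 0.34 and Stat5a at -0.10, each with an adjusted p over 0.2. Of the 47 genes that were higher at 3 h and below unstimulated at 24 h, 12 (25.5%) were higher after the second dose. Of the 192 late genes, 2 (1.04%) were higher and 11 (5.73%) lower, and Saa3 differed by -0.06, Arg1 by -0.28 and Pla2g7 by -0.01 with adjusted p-values over 0.6. Of the 43 sustained genes, 6 (14%) were lower, Nos2 by 2.01 (edgeR adjusted p = 0.000234) among them. Mertk, early lowered in the first response, was lower again by 1.12 (edgeR adjusted p = 0.00138), with 24 of the 432 early lowered genes (5.56%). Without the replicate number in the model, the calls over all genes were 92 higher and 42 lower.

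**Figure D5:**
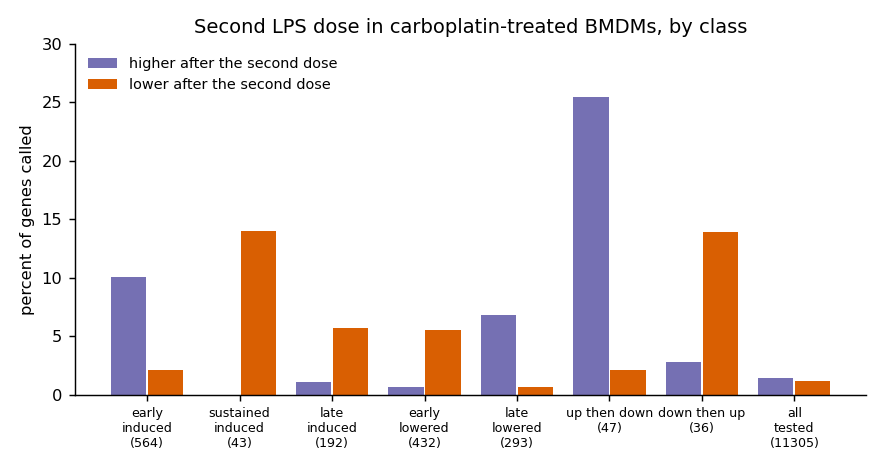
Percent of the genes in each class that were called higher (purple) or lower (orange) after a second dose of LPS at 10 ng/ml for 3 h in carboplatin-treated BMDMs, at an adjusted p under 0.05 and an absolute log2 fold change over 1. The number of genes is given under each class and all tested genes stand at the right. Early genes and genes that rose at 3 h and fell by 24 h are more often higher than all tested genes, at 10.1% and 25.5% against 1.46%.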

How the data were processed

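The authors aligned paired-end RNA-Seq reads to GRCm39 with HISAT2 and counted read pairs per gene with HTSeq, and the counts were deposited without normalization. Versions, annotation and strand setting are not given in the sources used here. Doses came from the labels, the 24 h from the methods of the study and the 3 h from its supplementary scheme. Lines that name no gene, 42.2% to 46.9% of read pairs in the 9 libraries used here, were removed. Counting error limits genes with few counts.

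Counts of all 18 samples were fitted with edgeR 4.0.16 in R 4.3.3 (TMM, default expression filter with a minimum count of 10 and total of 15, prior count 0.125, 6 group means and the replicate number as a block). Adjusted p follows Benjamini and Hochberg over 11305 genes. Normalized counts are counts over the TMM-scaled library size times the mean size. An SE was obtained by dividing the absolute log2 fold change by the root of the F statistic. Groups with at most 3 counts in every library are given a ratio of summed counts with an exact 95% counting interval or, at 0, a lower bound against 3 counts. The script was tested on simulated counts.

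Genes named are the 10 with the largest fitted change in each direction with at least 100 counts in every library of the higher group and 3 of 3 same-numbered pairs alike, the 5 most abundant of each class, the 5 with the widest gap of each crossed direction, up to 3 called members of each of 32 lists in each direction, and 11 fixed genes. Cpd, Snapc1, Gab1 and Rnd3 are the genes nearest the class limits. Classes, lists and members were chosen with earlier results of these data known. Alternatives were RLE or library-size scaling, no filter, at least 10 counts, DESeq2 1.42.0, limma-voom (limma 3.58.1), fewer samples, no replicate block, other limits and leaving out each sample. Fits of the 6 compared samples alone were added after the data were seen. A few results on named genes are not reported here. Gene positions are from GENCODE vM39 on GRCm39.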

Additional observations from a re-analysis of the deposited data

Results flagged for a closer look

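The effect of LPS against unstimulated BMDMs differed in sign between 10 ng/ml for 3 h and 100 ng/ml for 24 h in 83 genes. They were chosen for an absolute log2 fold change over 1 in opposite directions, so that a direct difference of more than 2 between the LPS groups follows from the choice and is given as a description. The direct difference had a median of -4.08 on the log2 scale in the 47 genes that were higher at 3 h and below unstimulated at 24 h, and of 3.70 in the 36 genes with the reverse order. With low groups at the floor of 3 counts per library these medians were -4.05 and 3.34. Il10, Irf4, Egr2 and Cd83 belong to the first set, and Ccdc125, Dusp6 and Scd2 to the second. Both effects share the unstimulated libraries, and dose and time cannot be told apart.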

How the results depend on the processing

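The direct comparison gave 1133 genes, of which 1121 were also called with RLE factors, 1105 with DESeq2, 1094 with limma-voom and 993 in a fit of the 6 samples alone, which was added after the data were seen. Same-numbered samples of both LPS groups deviated together with correlations of 0.30, 0.20 and 0.06, not all over 0.1. The correlations with unstimulated samples were 0.44, 0.24 and 0.19 at 3 h and 0.44, 0.31 and 0.47 at 24 h. Those of the carboplatin groups were 0.49, 0.49 and 0.31. Between different numbers, the highest values were 0.28 in the direct comparison and 0.26 at 3 h. They were -0.030 at 24 h and 0.035 in the carboplatin groups. The numbers thus singled out pairs at 24 h and with carboplatin, but not throughout the direct comparison or at 3 h. Without the replicate block the direct calls were 470 higher and 639 lower, and those after the second dose 92 higher and 42 lower. Leaving out 1 sample gave 462 to 548 higher and 670 to 712 lower.

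Requiring at least 10 counts in every sample, which leaves fewer genes to test, gave 213 higher and 364 lower, 445 and 309 at 3 h, 206 and 236 at 24 h, and 343 early induced, 87 late induced, 230 early lowered, 162 late lowered and 47 crossed genes. A log2 limit of 1 gave 1542 higher (13.6%) and 1593 lower (14.1%), 1700 and 2044 at 3 h, 872 and 1105 at 24 h, and 1038 early induced, 130 sustained induced, 328 late induced, 1002 early lowered and 125 sustained lowered genes, and a limit of 2 for the second dose left 43 higher and 16 lower. Library size alone gave 986 lower genes at 3 h, 661 early lowered and 17 sustained lowered genes. A class limit of 2 gave 248 early lowered and 193 late lowered genes. Leaving out 1 sample gave 91 to 109 lower genes after the second dose, against 137 with all samples, and 91 was reached without replicate 3 given carboplatin and 1 LPS dose and without replicate 1 or 3 given carboplatin and both doses. It gave 4 to 13 sustained lowered genes against 9, with 4 lacking replicate 3 and 13 lacking replicate 1 of the 24 h and 3 h groups, respectively.

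Direct differences near 0 changed sign. Library size alone gave Cyp27a1 0.060 and Nr1d2 0.012, and limma-voom gave Nr1d2 0.036. Over the left-out samples, Sod2 ranged from -0.17 to 0.22, Hif1a from -0.078 to 0.18, Mical1 from -0.11 to 0.61, Cyp27a1 from -0.12 to 0.068, Slc46a3 from -0.31 to 0.38, Nr1d2 from -0.32 to 0.22 and Nos2 from -0.71 to 0.15. The causes of these shifts were not tested.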
